A study of Mus musculus with 10 samples.

Results

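Tcf7-positive T follicular helper (Tfh) cells in which 4 genes of the mature Tfh state were not detected were examined in the spleens of BXD2 mice, a recombinant inbred strain prone to spontaneous germinal centers and autoantibodies. They were 275 of the 9356 cells that passed quality control and of the 3574 CD4-gated T cells, from 11355 barcodes in all. A CD4-gated T cell had at least 1 UMI (a counted RNA molecule) of Cd3e, Cd3d and Cd3g together, none of Cd79a and none of Cd8a or Cd8b1. The cells were chosen by these measured values: a Tcf7 Tfh cell also had 0 UMIs of Foxp3, at least 2 of the 8 genes Cxcr5, Pdcd1, Il21, Tox2, Sh2d1a, Tbc1d4, Maf and Icos, 0 UMIs of Sostdc1, Ascl2, Padi4 and Angptl2, and at least 1 UMI of Tcf7. The groups were 3 BXD2-p19-/- mice, in which IL-23, a cytokine, lacks its p19 subunit (numbers 1 and 2 female, number 3 male), and 2 female BXD2-WT mice. Each mouse gave 1 RNA library and 1 B cell receptor (BCR) library from splenic B and T cells, made with a 10x 5' kit, and the labels give no age and no capture day. The labels describe no sort beyond naming B and T cells, and the series design names GC B cells, so shares of cells may not be those of the spleen. The mouse was the replicate in every test, and no label says whether mice shared a litter or a day.

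Tcf7 encodes TCF-1, a transcription factor that acts early in the Tfh program together with LEF-1 and upstream of BCL6, and that also marks naive and stem-like memory T cells. Tfh cells move into B cell follicles through CXCR5 and help germinal center B cells through CD40L, IL-21 and IL-4. KLF2, S1PR1, CCR7 and PSGL-1 (Selplg) serve recirculation and residence outside germinal centers, and most are lowered as Tfh cells mature. Comparison cells were gated from the same libraries: 2113 mature Tfh cells (as above, but with at least 1 UMI of Sostdc1, Ascl2, Padi4 or Angptl2 and with no demand on Tcf7), 585 regulatory T (Treg) cells with Foxp3, and 36 naive-like cells. The naive-like cells had under 2 of the 8 Tfh genes, at least 2 of 4 naive T cell genes (among them Ccr7, Lef1 and Igfbp4), and no Foxp3, maturation gene, S100a4 or Ccl5 UMI.

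Rflnb and Nsg2, 2 markers given with the definition but not used to choose cells, were among the 3 named genes with the largest increase against Treg cells. Their promoters are shown with that of Ctla4, a coinhibitory receptor gene that was lower. They run from 250 bases before to 50 after an annotated start and come from RefSeq (GRCm38.p6, the mm10 build). For Nsg2 the first of 2 available windows is shown. The annotated Nsg2 gene begins upstream of that window, at chr11:31999704. A core TCF/LEF motif, CTTTGAT or its reverse complement ATCAAAG, was searched on both strands and matches are in capitals.
Rflnb, chr11:76027733-76028032, minus strand: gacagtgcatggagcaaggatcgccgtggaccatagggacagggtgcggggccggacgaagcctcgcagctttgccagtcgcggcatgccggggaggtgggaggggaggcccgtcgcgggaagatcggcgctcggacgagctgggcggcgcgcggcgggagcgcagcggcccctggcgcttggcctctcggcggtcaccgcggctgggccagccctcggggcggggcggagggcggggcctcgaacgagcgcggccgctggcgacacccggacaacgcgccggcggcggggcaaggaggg
Nsg2, chr11:32000169-32000468, plus strand: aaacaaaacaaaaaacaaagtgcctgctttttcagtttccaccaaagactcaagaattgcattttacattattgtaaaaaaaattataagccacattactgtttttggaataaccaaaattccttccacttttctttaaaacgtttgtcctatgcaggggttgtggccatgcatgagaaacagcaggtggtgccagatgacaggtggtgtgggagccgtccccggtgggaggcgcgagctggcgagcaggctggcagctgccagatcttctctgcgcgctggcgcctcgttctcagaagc
Ctla4, chr1:60908775-60909074, plus strand: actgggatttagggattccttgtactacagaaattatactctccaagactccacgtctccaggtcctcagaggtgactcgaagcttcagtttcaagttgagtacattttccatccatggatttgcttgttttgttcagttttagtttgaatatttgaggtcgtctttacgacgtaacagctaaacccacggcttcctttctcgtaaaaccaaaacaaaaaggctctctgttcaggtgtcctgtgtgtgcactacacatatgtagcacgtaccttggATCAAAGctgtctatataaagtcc
The Ctla4 window held 1 match and the Rflnb and Nsg2 windows none. Ctla4 was taken from the genes whose window held a match, so this contrast was fixed by the choice. Of all 32851 promoter windows, 1225 (3.73%) held at least 1 match. Among genes with a window, a match was found for 6 of 185 (3.24%) that were higher in Tcf7 Tfh than in mature Tfh cells and for 2 of 186 (1.08%) that were lower, against 169 of 5857 tested (2.89%). Against Treg cells the shares were 3 of 186 (1.61%) of higher genes, 3 of 171 (1.75%) of lower genes and 107 of 3515 (3.04%) of all tested genes. These counts describe letters in short windows and are not tests of binding.

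The RNA libraries held 7712457 to 18093053 UMIs, and Il23a, which encodes p19, gave 0 UMIs in all 5, so the deletion could not be checked from RNA. Library pairs shared 3 to 11 barcodes. Of the Tcf7 Tfh barcodes, 3 also occurred in another library, and none was a Tcf7 Tfh cell in both.

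Tcf7 Tfh cells formed 5.93%, 9.18% and 8.17% of CD4-gated T cells in p19-/- mice (34, 37 and 70 cells), against 7.38% and 8.08% in WT mice (70 and 64 cells). The means were 7.76 ± 1.66% in p19-/- mice and 7.73 ± 0.498% in WT mice (SD, n = 3 and 2), a difference of 0.0325 percentage points (two-sided exact permutation p = 1.0). Without cells that had a contig in the mouse's B cell receptor (BCR) library the difference was 1.42 percentage points (exact permutation p = 0.6). The groups overlapped, and with 10 possible splits the smallest two-sided p is 0.2. Of all cells passing quality control they were 3.01 ± 0.861% in p19-/- and 3.14 ± 0.900% in WT mice (exact permutation p = 1.0). Their median depth was 3387 UMIs and 1522 genes per cell, against 3713 UMIs in mature Tfh and 3734 in Treg cells.

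**Figure D1:**
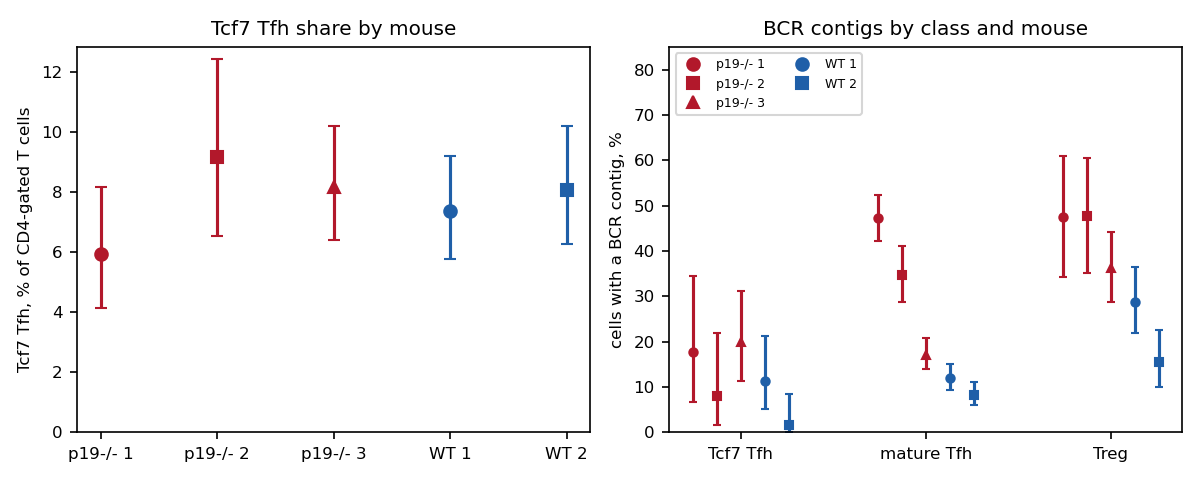
Left, Tcf7 Tfh cells as a percent of CD4-gated T cells in each mouse; right, percent of cells with a BCR contig in the same mouse's BCR library, by class. Points are mice (p19-/- red, WT blue), bars are Clopper-Pearson 95% intervals, and the Tcf7 Tfh shares lie between 5.93% and 9.18% with overlapping groups.

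The markers were those of CD4 T cells with a partial Tfh profile. Cd4 was detected in 202 of 275 cells (73.5%, Clopper-Pearson 95% interval 67.8 to 78.6%), against 0.487% of B-gated cells, which were deeper (median 8007 UMIs). Rflnb, which encodes the actin-regulating protein refilin B, was detected in 112 cells (40.7%) and Nsg2, a neuronal vesicle protein gene, in 85 (30.9%), against 2.02% and 0.243% of B-gated cells. With each cell thinned to 2000 UMIs, which left out 30 of the 275 cells, the Rflnb shares were 26.1% and 0.945% and the Nsg2 shares 20.0% and 0.0540%. Neither marker was particular to these cells. Without thinning, Rflnb was detected in 19.5% of mature Tfh and 66.7% of naive-like cells, and Nsg2 in 29.6% and 22.2%. Of the Tfh genes, Pdcd1, which encodes PD-1, was detected in 214 cells (77.8%) and Cxcr5 in 121 (44.0%), against 1.09% and 30.7% of B-gated cells. Both are among the 8 Tfh genes used to choose the cells, so these shares were raised by the choice. Bcl6, the lineage factor of Tfh and of germinal center B cells, was detected in 44 cells (16.0%) and in 36.6% of B-gated cells. With thinning, the Bcl6 shares were 9.80% of Tcf7 Tfh and 11.9% of B-gated cells and the Cxcr5 shares 29.0% and 9.83%. A Bcl6 UMI alone therefore does not set these cells apart from B cells. The B cell gene Cd79b was detected in 2.04% of thinned Tcf7 Tfh and 84.0% of thinned B-gated cells. The source of the Bcl6 UMIs was not tested. Ikzf2 (Helios), which Treg cells share, was detected in 169 cells (61.5%), and in 59.6% of mature Tfh and 89.7% of Treg cells.

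The cells were not uniform. Of the 8 Tfh genes, 46 cells had exactly 2, 43 had 3, 56 had 4, 54 had 5, 48 had 6, 24 had 7 and 4 had all 8. Tcf7 was seen as 1 UMI in 117 cells, as 2 in 68 and as 3 or more in 90, with at most 11 in a cell. Just outside the definition, 288 cells met every demand but had 0 Tcf7 UMIs, 137 had Tcf7 but exactly 1 maturation UMI, and 40 had 1 of the 8 Tfh genes. The 288 Tcf7-zero cells were shallower (median 2755 UMIs) and carried 126 CPM of Rflnb (UMIs per 1e6 UMIs of the class) and 72.7 of Nsg2, against 202 and 146 CPM in Tcf7 Tfh cells. Of the 2113 mature Tfh cells, 1416 had a Tcf7 UMI, so Tcf7 itself does not separate the classes.

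A small subset carried cytotoxic T cell genes. Ccl5, a chemokine of effector T cells, or Nkg7, a granule protein gene, was detected in 27 Tcf7 Tfh cells (2, 7 and 9 in p19-/- mice, 4 and 5 in WT mice). In p19-/- mice Ccl5 gave 96, 315 and 48 UMIs, against 19 and 116 in WT mice, but from 14 cells in all. The single highest cell held 94, 208, 46, 17 and 111 of these. In this subset Rflnb was at 25.6 CPM, against 246 CPM in the other 248 cells. The subset's Cd4 and Cxcr5 were detected in 18 and 11 of the 27 cells. Ncr1, Klrb1c, Klrd1, Gzma and Prf1, markers of NK and cytotoxic cells, summed to 21.2 to 124 CPM in p19-/- and 7.52 to 21.3 CPM in WT mice. The highest sum was that of p19-/- 1. There a single cell held all 8 Ncr1 UMIs, and all 5 Klrb1c UMIs likewise came from a single cell.

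Transcripts of B cells were also present. A contig in the same mouse's BCR library was found for 32 of 275 Tcf7 Tfh cells (11.6%), namely 17.6%, 8.11% and 20.0% in p19-/- mice and 11.4% and 1.56% in WT mice. The share was 21.5% of mature Tfh, 31.6% of Treg and 0 of 36 naive-like cells, which allows up to 9.74% (Clopper-Pearson upper bound). All 8 B cell markers were detected. Their summed level in Tcf7 Tfh cells was 403 to 3507 CPM in p19-/- mice and 253 to 537 CPM in WT mice. The highest value, in p19-/- 2, came mainly from 1 cell, which held 538 of the 928 Cd74 UMIs of all Tcf7 Tfh cells. The myeloid list summed to 164 to 373 CPM in p19-/- and 189 to 849 CPM in WT mice, with S100a8 at 0, and 1 WT 1 cell held 173 of 406 Cst3 UMIs. Their part in the results below was not tested, beyond the values given without cells that had a BCR contig.

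The definitions of Tcf7 Tfh and mature Tfh cells differed in the 4 maturation genes and in the demand for Tcf7. Of the 2113 mature Tfh cells, 1416 had a Tcf7 UMI. The comparison of these classes cannot tell what goes with the absent maturation genes from what goes with Tcf7. Klf2, Selplg and Gpr183 were higher in Tcf7 Tfh cells, and 8 of 14 glycolysis genes and 6 of 19 Tfh genes tested were lower. S1pr1, which encodes the egress receptor, did not pass (log2 fold change 0.67, edgeR adjusted p = 0.139). Of 7399 genes, 248 (3.35%) were higher and 236 (3.19%) lower in Tcf7 Tfh cells (edgeR quasi-likelihood test on sums per mouse with mouse as a block, Benjamini-Hochberg adjusted p under 0.05). The definition used the 8 Tfh genes, the 4 maturation genes, Tcf7 and the lineage genes, so these were not tested, and genes that vary with them from cell to cell are not independent of the choice. Calls numbered 305 without WT 1, 316 without WT 2, and 215 with cells thinned to 2000 UMIs. For this and every other fit on thinned cells, the classes were gated again on the thinned counts. Such fits therefore compare changed sets of cells, whereas the thinned detection shares above kept the original members. A sum over cells cannot tell more cells with a transcript from more transcript per cell, so shares of cells are given for some genes.

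Klf2, a transcription factor of quiescence and egress, was at 240, 571 and 233 CPM in Tcf7 Tfh cells of p19-/- mice and 218 and 274 CPM in those of WT mice. In mature Tfh cells it was at 139, 110 and 85.7 CPM in p19-/- and 99.6 and 96.3 CPM in WT mice. Every mouse was higher in Tcf7 Tfh cells, and the log2 fold change was 1.57 (SE 0.16, adjusted p = 1.53e-05, edgeR). Klf2 was detected in 83 of 275 Tcf7 Tfh (30.2%) and 311 of 2113 mature Tfh cells (14.7%). Selplg, which encodes the selectin ligand PSGL-1, averaged 187 ± 41.7 CPM in Tcf7 Tfh and 46.9 ± 6.49 CPM in mature Tfh cells (SD, n = 5 mice), a log2 fold change of 2.07 (SE 0.17, edgeR adjusted p = 2.19e-06). The oxysterol receptor gene Gpr183 (EBI2), which guides cells to the follicle border, was at 79.9, 175 and 218 CPM in Tcf7 Tfh cells of p19-/- mice and 105 and 146 CPM in those of WT mice. It was at 49.5, 38.8 and 37.3 CPM in mature Tfh cells of p19-/- mice and 37.5 and 50.5 CPM in those of WT mice, so the classes did not overlap (log2 fold change 1.86).

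Ccr7, the receptor for T zone chemokines, averaged 62.5 ± 25.4 CPM in Tcf7 Tfh and 18.9 ± 6.04 CPM in mature Tfh cells, and rose in all 5 mice (log2 fold change 1.72, edgeR adjusted p = 0.000554). Other genes named by fold change and higher in every mouse were Gpr132, a lipid-sensing receptor gene (1.78), the metalloprotease gene Adam19 (1.78), the LIM-domain gene Lmo4 (1.64), the calcium kinase gene Camk4 (1.57) and the Notch regulator gene Dtx1 (1.55). Ccl5 had the largest log2 fold change, 7.06 (edgeR adjusted p = 9.73e-08), and rested on the 14 cells described above. Of 18 listed genes of other effector T cells 10 were tested, 5 rose and none fell, with a median log2 fold change of 0.78. Those that rose were Ccl5, Gzmk, Eomes, Nkg7 and S100a4. The S100a4 call was lost whichever mouse was left out, and the Nkg7 call without WT 2. Gzmk, which encodes a granzyme, was higher by 3.13. With all Ccl5 or Nkg7 cells left out, from mature Tfh as well as Tcf7 Tfh cells, it was higher by 1.54, which did not pass. In that setting 1 of 6 tested genes of the effector list rose. Without those cells Klf2 (1.54), Selplg (2.03) and Ccr7 (1.80) were still higher.

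The TCF-1 and quiescence list was chosen with earlier results known and holds the given markers Rflnb and Nsg2. Its counts are therefore not independent of these data. Of its 20 genes, 16 were tested, 7 rose and none fell, with a median log2 fold change of 0.56 against 0.01 over all genes tested. Besides Klf2 and Ccr7 these included Myb (1.79), Rflnb (1.36), the IL-7 receptor gene Il7r (1.12) and Lef1 (0.66). Rflnb averaged 195 ± 86.1 CPM in Tcf7 Tfh and 80.6 ± 22.1 CPM in mature Tfh cells, higher in 5 of 5 mice (SE 0.17, edgeR adjusted p = 8.90e-05). Nsg2 had a log2 fold change of 0.38 and did not pass (edgeR adjusted p = 0.225), nor did Slamf6, a stem-like T cell marker (0.22, 0.255). The Lef1 call was lost when p19-/- 1, p19-/- 2, p19-/- 3 or WT 1 was left out, and the Myb call when p19-/- 3 or WT 1 was.

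**Figure D2:**
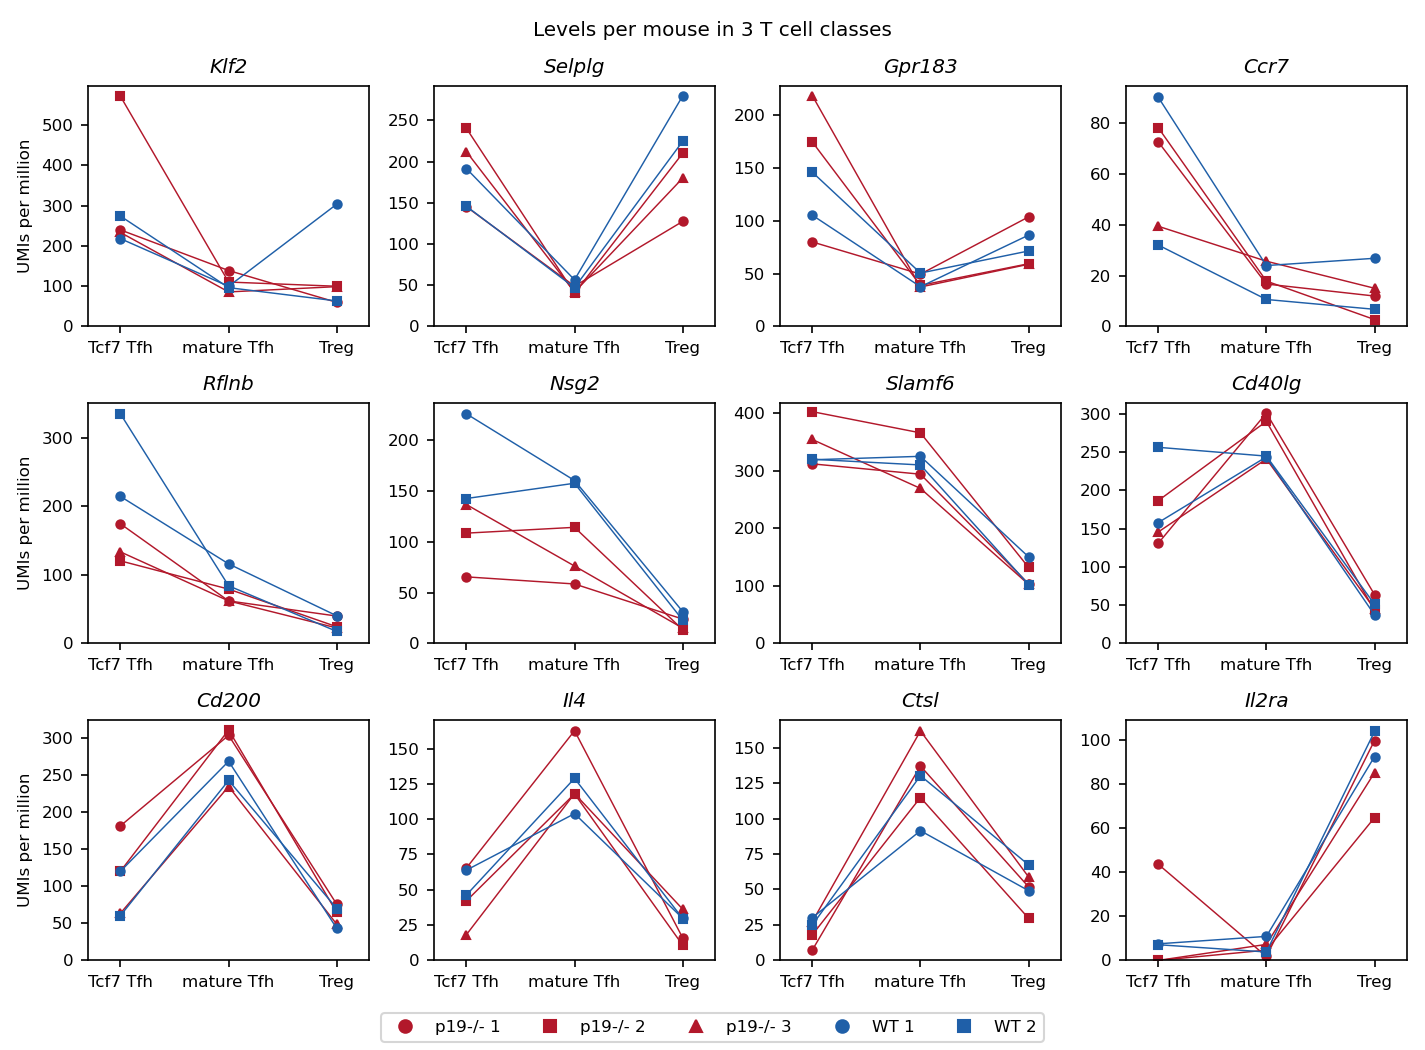
Level of 12 genes in CPM (vertical axis) in Tcf7 Tfh, mature Tfh and Treg cells, 1 point per mouse and class, lines joining the classes of a mouse. Selplg is high in Tcf7 Tfh and Treg cells and low in mature Tfh cells, Rflnb and Nsg2 are low in Treg cells, and Cd200, Il4 and Ctsl are highest in mature Tfh cells.

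Of 20 listed Tfh genes outside the definition, 19 were tested, none rose, 6 fell and 13 did not pass. Fold changes were negative for 12 and positive for 7, with a median log2 fold change of -0.38. Without Ccl5 or Nkg7 cells, a setting chosen after seeing the data, 10 were negative, 5 fell and the median was -0.0868, and in thinned cells 5 fell, 1 rose and the median was -0.12. Cd200, which encodes a surface ligand of Tfh cells, was at 182, 120 and 63.7 CPM in Tcf7 Tfh cells of p19-/- mice and 120 and 60.5 CPM in those of WT mice, against 304, 311 and 235 CPM and 269 and 243 CPM in mature Tfh cells. The fold change was -1.33 (SE 0.16, edgeR adjusted p = 6.27e-05), and 21.1% of Tcf7 Tfh and 50.4% of mature Tfh cells had a Cd200 UMI. The cytokine gene Il4 fell by 1.38 on the log2 scale, to 47.2 ± 19.2 CPM in Tcf7 Tfh cells against 126 ± 22.2 CPM in mature Tfh cells. Tnfsf8, which encodes CD30 ligand (-1.15), Cebpa (-1.15), the inhibitory receptor gene Btla (-0.73) and Nfatc1, a calcium-signalled transcription factor gene (-0.65), also fell, but Btla did not pass when WT 1 or WT 2 was left out. Bcl6 was at 65.4, 18.1 and 33.3 CPM in Tcf7 Tfh cells of p19-/- mice and 56.4 and 67.6 CPM in those of WT mice, and averaged 80.5 ± 3.50 CPM in mature Tfh cells. It was lower in every mouse but did not pass (log2 fold change -0.66, edgeR adjusted p = 0.128). Cd40lg (CD40 ligand) did not pass either.

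The genes that fell most and were named by fold change included lipid and lysosome genes. Apoe, which encodes apolipoprotein E, was at 29.1, 48.1 and 3.03 CPM in Tcf7 Tfh cells of p19-/- mice and 26.3 and 217 CPM in those of WT mice, against 528, 507 and 824 CPM and 616 and 973 CPM in mature Tfh cells. In WT 2 a single Tcf7 Tfh cell held 61 of the 81 UMIs, and the log2 fold change was -3.47 (edgeR adjusted p = 9.43e-06). Its neighbour in the same gene cluster, Apoc4, was at -4.03 (7 UMIs in 3 Tcf7 Tfh cells). Ctsl, the lysosomal protease cathepsin L, fell by 2.36 on the log2 scale, to 21.5 ± 9.13 CPM in Tcf7 Tfh against 127 ± 26.1 CPM in mature Tfh cells, and Csf1, a macrophage growth factor gene, by 2.12. Gfra4 (-2.89), Gem (-2.83), Plagl1 (-2.45), Fam20a (-2.32) and Tmem38b (-2.14) were lower in 5 of 5 mice as well.

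Glycolysis genes were lower as a group: of 16 listed 14 were tested, all 14 had negative log2 fold changes (also with RLE scaling and in DESeq2), and 8 fell, with a median of -0.53. Aldoa (aldolase) was at 850, 1065 and 1146 CPM in Tcf7 Tfh cells of p19-/- mice and 951 and 915 CPM in those of WT mice, against 1432, 1790 and 1837 CPM and 1410 and 1577 CPM in mature Tfh cells. The classes did not overlap (log2 fold change -0.62, SE 0.07, edgeR adjusted p = 2.42e-05). Pkm (pyruvate kinase, -0.46), Tpi1 (-0.67), Pgam1 (-0.65), Hk1 (-0.67), Pfkl (-0.83), Pfkp (-0.60) and P4ha1, a hypoxia-induced prolyl hydroxylase gene kept on this list (-0.86), were the others. The number that fell was 4 without p19-/- 2, 5 without WT 2 and 5 in thinned cells. Hk1 and P4ha1 did not pass when p19-/- 1, p19-/- 2, WT 1 or WT 2 was left out, Pfkl not without p19-/- 2 or WT 2, and Pfkp not without p19-/- 2. Of 10 checkpoint genes 8 were tested and 3 fell, Lag3 (-0.57), Nt5e (-0.65) and Vsir (-0.62), with Lag3 not passing when p19-/- 1, p19-/- 3, WT 1 or WT 2 was left out. None of 15 S phase and 10 G2 and M phase genes tested passed.

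**Figure D3:**
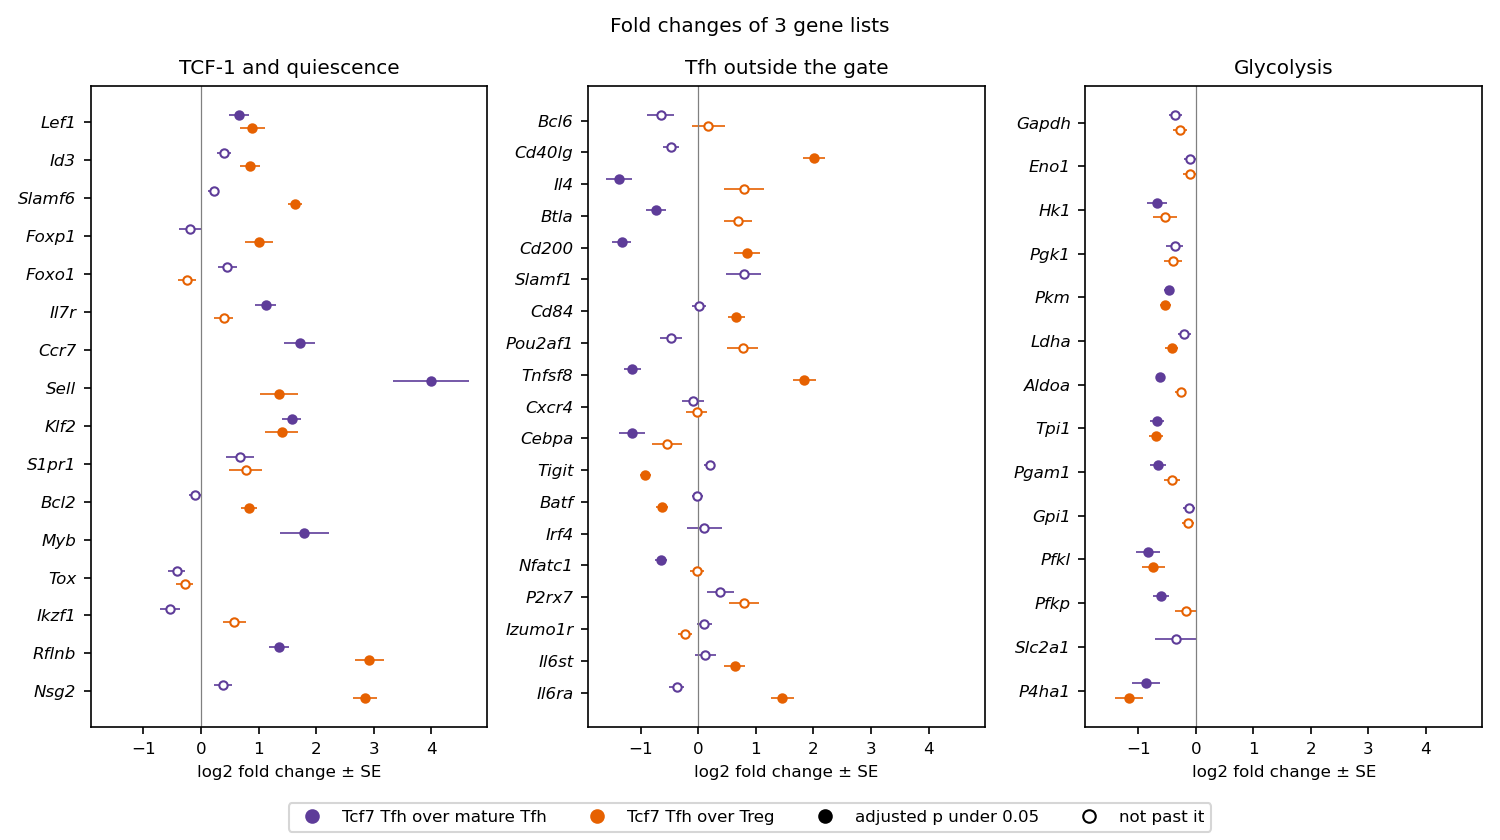
Log2 fold change (horizontal axis, ± SE) of Tcf7 Tfh over mature Tfh cells (purple) and over Treg cells (orange) for the tested genes of 3 lists; filled points had an adjusted p under 0.05. All glycolysis genes lie below 0 in both comparisons, and the Tfh genes Cd200 and Tnfsf8 lie below 0 against mature Tfh and above 0 against Treg cells.

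Against Treg cells, Tcf7 Tfh cells had more of the marker genes Rflnb and Nsg2 and of Tfh ligand genes, and less of the Treg genes. Of 4416 genes, 252 (5.71%) were higher and 223 (5.05%) lower in Tcf7 Tfh cells (edgeR, mouse as a block). There were 308 calls without WT 2, 267 in thinned cells and 257 in DESeq2. Foxp3 defined the classes, so a loss of Treg genes is close to the definition.

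Rflnb was at 174, 120 and 133 CPM in Tcf7 Tfh cells of p19-/- mice and 214 and 335 CPM in those of WT mice, against 39.8, 24.3 and 22.5 CPM and 40.2 and 17.5 CPM in Treg cells. The classes did not overlap, and the log2 fold change was 2.92 (SE 0.25, edgeR adjusted p = 3.39e-07). Nsg2 was at 65.4, 108 and 136 CPM in Tcf7 Tfh cells of p19-/- mice and 225 and 142 CPM in those of WT mice, against 13.5 to 23.9 CPM in p19-/- and 31.3 and 22.9 CPM in WT Treg cells (log2 fold change 2.84, SE 0.21, edgeR adjusted p = 8.88e-08). Slamf6 averaged 342 ± 37.9 CPM in Tcf7 Tfh and 118 ± 22.0 CPM in Treg cells (1.63, edgeR adjusted p = 1.33e-07). Themis, a T cell receptor signalling gene, was higher by 2.88 (105 ± 17.6 against 14.1 ± 7.58 CPM), and Lmo4 by 2.42. Slfn1, a gene of T cell quiescence (2.49), Ms4a4b (2.27) and the endosomal gene Ehd3 (1.94) were also higher in all 5 mice.

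Cd40lg, the ligand through which helper T cells activate B cells, was at 131, 187 and 145 CPM in Tcf7 Tfh cells of p19-/- mice and 158 and 256 CPM in those of WT mice, and at 37.2 to 63.7 CPM in Treg cells. It rose in all 5 mice (log2 fold change 2.01, SE 0.19, edgeR adjusted p = 1.19e-06), as did Tnfsf8 (1.84). Of the 20 Tfh genes outside the definition 17 were tested, 6 rose and 2 fell. The others that rose were the IL-6 receptor genes Il6ra (1.46) and Il6st (0.63), Cd84 (0.66) and Cd200 (0.84). The Cd200 call was lost when p19-/- 1, p19-/- 2 or WT 1 was left out and without cells that had a BCR contig, and the Il6st call under each of p19-/- 1, p19-/- 2, WT 1 and WT 2 left out. Those that fell were Tigit (-0.92) and Batf (-0.64), and Bcl6 did not pass (0.17, edgeR adjusted p = 0.816). Of the TCF-1 and quiescence list 14 were tested, 9 rose and none fell, with a median of 0.87. They included Slamf6, Klf2 (1.40), Foxp1 (1.01), Lef1 (0.89), Id3 (0.85) and Bcl2 (0.83). Among the 9 were also the markers Rflnb and Nsg2, which were given with the definition and put on this list. Klf2 was no longer past the threshold when at least 3 of the 8 Tfh genes were demanded (0.96), and the Foxp1 call was lost without p19-/- 1 or WT 2 and the Lef1 call without p19-/- 2. Selplg, higher against mature Tfh cells, did not pass here (-0.06, edgeR adjusted p = 0.898).

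Il2ra, the high-affinity IL-2 receptor gene, was at 43.6, 0 and 0 CPM in Tcf7 Tfh cells of p19-/- mice (6, 0 and 0 UMIs) and 7.52 and 7.12 CPM in those of WT mice, against 64.7 to 99.6 CPM in p19-/- and 92.3 and 104 CPM in WT Treg cells. The classes did not overlap and it fell by 3.26 on the log2 scale (SE 0.43, edgeR adjusted p = 5.64e-05). Of the 14 Treg genes 9 were tested and 8 fell, with a median of -1.71. Among them were the tumor necrosis factor receptor genes Tnfrsf9 (-2.25), Tnfrsf18 (GITR, -1.92) and Tnfrsf4 (OX40, -1.71), the integrin gene Itgae (-3.25), Capg (-1.65), Ctla4 (-1.16) and Ikzf2 (-0.95). Ikzf2 still averaged 371 ± 84.3 CPM in Tcf7 Tfh cells, against 758 ± 55.5 CPM in Treg cells. The largest decrease among named genes was that of Neb, a giant sarcomere protein gene, with 1 UMI in Tcf7 Tfh cells of all mice against 15 to 59 per mouse in Treg cells. The enkephalin gene Penk (-3.005), Il1rn (-3.76), Lamc1 (-2.98), the chemokine receptor gene Ccr8 (-2.92), the phosphatase gene Dusp5 (-2.48), Epcam (-2.34) and Tnfrsf1b (-2.32) were lower in all 5 mice. For Penk a single p19-/- 2 cell held 44 of 68 Tcf7 Tfh UMIs.

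Activation-related lists were lower against Treg cells too. Of 14 tested interferon-response genes 6 fell, with a median of -0.37: Iigp1 (-1.38), Gbp3 (-1.14), Igtp (-1.13), Gbp7 (-1.03), Ifi27l2a (-0.57) and Irf1 (-0.51). The count was 3 without WT 2 and 1 in DESeq2. Iigp1 did not pass without p19-/- 2, p19-/- 3 or WT 2, Irf1 not without p19-/- 3, WT 1 or WT 2, and Gbp3 not without WT 2. Of 14 immediate early genes 5 fell, with a median of -0.41: Nr4a1, a reporter of T cell receptor signalling (-1.34), Dusp1 (-0.77), Nfkbia (-0.44), Junb (-0.42) and Jund (-0.40), and the count was 3 without WT 1, where Junb and Jund did not pass. Jund also did not pass without p19-/- 1 or p19-/- 2. Of 13 glycolysis genes all had negative fold changes, also with RLE scaling and in DESeq2, and 5 fell. This count was 3 without p19-/- 1, p19-/- 2 or WT 2, and 2 without cells that had a BCR contig. Of 6 checkpoint genes 5 fell, 2 of them without WT 2.

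Against naive-like cells, Tcf7 Tfh cells had more Tigit, Ikzf2 and Batf and less Satb1 and Klf2. Naive-like cells were few (2, 5 and 10 in p19-/- and 13 and 6 in WT mice), so the fit had only p19-/- 3 and WT 1. Of 2373 genes, 10 (0.421%) were higher and 6 (0.253%) lower (edgeR), with 0 calls under RLE scaling (log2 fold changes kept their sign), 71 in DESeq2 and 295 of 1292 (22.8%) when all 5 mice were fitted. Satb1, a chromatin organizer of naive T cells, was at 12.1 and 22.6 CPM in Tcf7 Tfh cells of these 2 mice, against 439 and 299 CPM in naive-like cells (log2 fold change -4.69, edgeR adjusted p = 0.0368). Klf2 was at 233 and 218 CPM against 585 and 1020 CPM (-2.04, adjusted p = 0.0427). So Klf2 was lowest in mature Tfh, intermediate in Tcf7 Tfh and highest in naive-like cells of both mice. Tigit was at 603 and 304 CPM against 0 UMIs in naive-like cells, Ikzf2 at 491 and 323 CPM against 0 and 24.9 CPM, and the activation factor gene Batf at 558 and 342 CPM against 62.7 and 49.7 CPM (log2 fold change 2.72). Tpi1 (3.05), Hmgb2 (2.45) and H2afz (1.96) were higher as well, and Slfn1 (-2.92), Actn1 (-3.96), Arl4c (-3.39) and Npc2 (-1.66) lower. Rflnb was at 133 and 214 CPM against 272 and 622 CPM and did not pass (-1.58, edgeR adjusted p = 0.0625).

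Between genotypes, none of 4382 genes (0.0%) passed in Tcf7 Tfh cells in edgeR, while 244 (5.57%) had an unadjusted p under 0.05 and DESeq2 called 2. Leaving out 1 mouse gave 0 to 5 calls: 4 when p19-/- 2 was omitted, 5 when p19-/- 3 was, and 1 each when WT 1 or WT 2 was. With cells thinned to 2000 UMIs and gated again 7 genes passed, and without the filter on low counts 58 did. In mature Tfh cells of the same mice 36 of 9407 genes (0.383%) passed, and in Treg cells 16 of 7544 (0.212%). The interaction of class and genotype, which asks whether a genotype difference is unequal between classes, called none of 7399 genes (mature Tfh) and none of 4416 (Treg) in edgeR or in DESeq2, with 280 (3.78%) and 193 (4.37%) at an unadjusted p under 0.05. Summed counts were 137692, 166220 and 329894 UMIs in p19-/- and 266083 and 281025 UMIs in WT Tcf7 Tfh cells, against 1289037 to 2066144 and 1837978 and 2358310 UMIs in mature Tfh cells. In simulated counts the Tcf7 Tfh genotype fit recovered 5.36% of 1.5-fold and 29.7% of 2-fold changes. The absence of calls therefore does not show equal expression.

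Stab2, a scavenger receptor gene, gave 0, 0 and 0 UMIs in Tcf7 Tfh cells of p19-/- mice, against 25 and 19 UMIs (94.0 and 67.6 CPM) in those of WT mice. Against a floor of 3 counts over the p19-/- group it was at least 17.1-fold lower, but it did not pass (edgeR adjusted p = 0.0747). It passed in DESeq2, when p19-/- 2 or p19-/- 3 was left out, without the filter on low counts, without Scrublet doublets and without Ccl5 or Nkg7 cells. In mature Tfh cells it gave 0, 1 and 2 UMIs in p19-/- and 146 and 225 in WT mice (edgeR adjusted p = 1.16e-06), and in Treg cells 0, 0 and 0 against 49 and 54 UMIs (edgeR adjusted p = 0.000113). Stab2 and Il23a both lie on chromosome 10, and whether this location plays a part was not tested. Gbp8, an interferon-induced guanylate-binding protein gene, gave 4, 7 and 14 UMIs in p19-/- and 0 and 1 UMIs in WT Tcf7 Tfh cells (edgeR adjusted p = 0.617), and the related Gbp9 was at 14.5, 30.1 and 30.3 CPM in p19-/- and 75.2 and 74.7 CPM in WT Tcf7 Tfh cells (adjusted p = 0.617). Neighbouring Gbp genes are close paralogs, so reads may be split between them. The groups did not overlap for these genes, which held for 946 of 4382 genes tested (21.6%).

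Hspa8, which encodes the constitutive chaperone HSC70, was at 2593, 2358 and 2470 CPM in Tcf7 Tfh cells of p19-/- mice, against 827 and 1277 CPM in those of WT mice. The groups did not overlap, and the log2 fold change was 1.24 (SE 0.20), which did not pass (edgeR adjusted p = 0.0747). It passed in DESeq2 (1.25), when p19-/- 2 (1.29) or p19-/- 3 was left out, and in cells thinned and gated again (1.36). It also passed without the filter on low counts, without Scrublet doublets and without Ccl5 or Nkg7 cells. In mature Tfh cells it was 2765, 2166 and 2449 CPM in p19-/- and 956 and 1343 CPM in WT mice (1.11, adjusted p = 0.00838), and in Treg cells the log2 fold change was 0.93 (adjusted p = 0.0323). The interaction for Hspa8 was 0.15 against mature Tfh cells (adjusted p = 1.0). Of 17 chaperone genes 13 were tested in Tcf7 Tfh cells, all with a positive log2 fold change under TMM and RLE scaling and 12 of 13 in DESeq2, with a median of 0.71 against 0.00 over all genes, and none passed. In thinned cells 4 of 12 chaperone genes rose, without the filter on low counts 5 of 17, and under each other setting just named for Hspa8 1 of 13. In mature Tfh cells 14 of 15 were positive and 8 rose (median 1.05), and in Treg cells 14 of 15 and 2 (median 0.88). Hsph1 was at 211, 78.2 and 188 CPM in p19-/- and 22.5 and 71.2 CPM in WT Tcf7 Tfh cells (1.76, adjusted p = 0.617). These classes came from the same libraries. With sex as a covariate, since only p19-/- 3 was male, 12 of 13 chaperone genes were positive and Hspa8 was at 1.25 without passing. That estimate rests on the female mice alone, as it does when p19-/- 3 is left out, so it is not a separate check. No label gives a capture day, so a batch that follows genotype cannot be told apart from it.

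**Figure D4:**
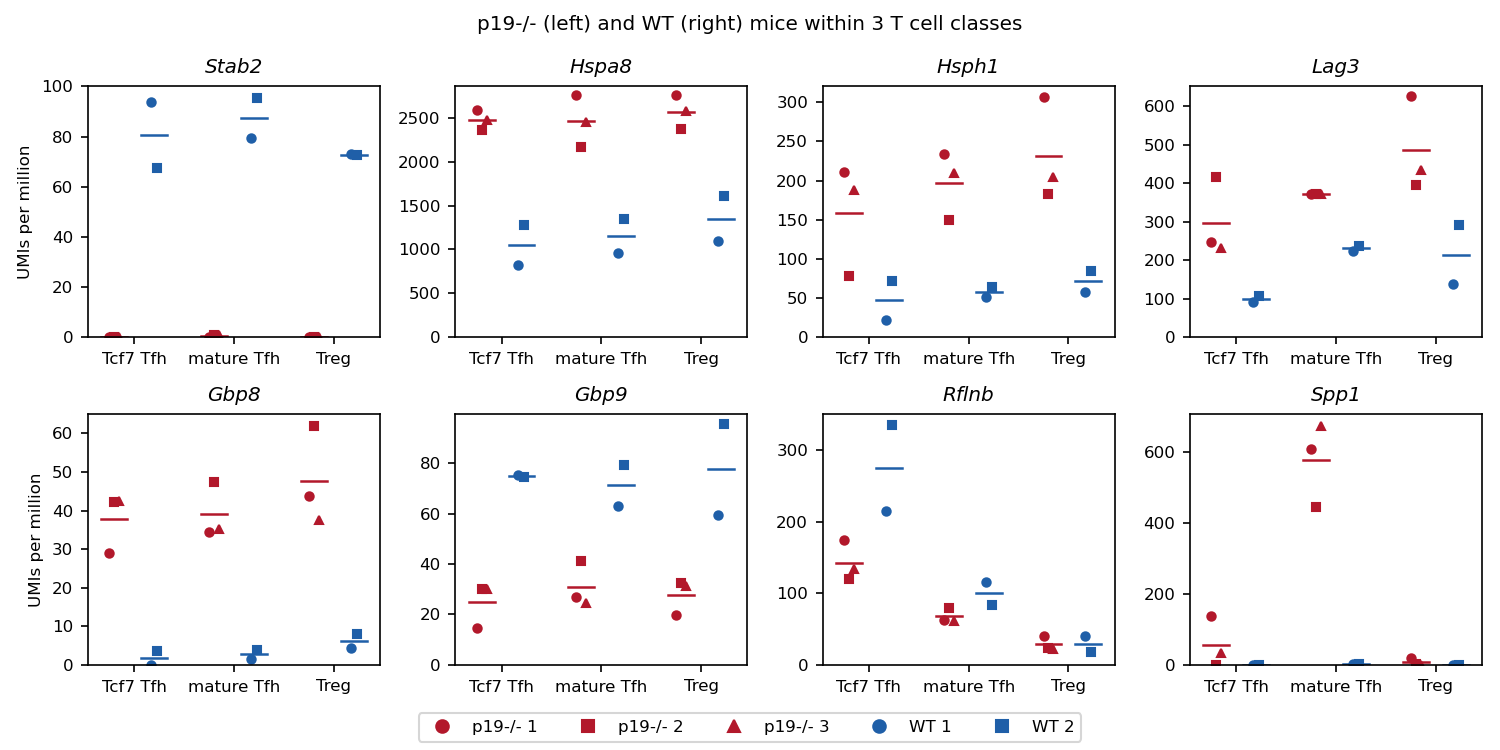
Level of 8 genes in CPM (vertical axis) in Tcf7 Tfh, mature Tfh and Treg cells, p19-/- mice left (red) and WT mice right (blue) within each class, with lines at group means. Stab2 is at 0 in Tcf7 Tfh cells of all 3 p19-/- mice, Hspa8 lies above 2000 CPM in p19-/- and below it in WT mice in each class, and Spp1 is high in mature Tfh cells of p19-/- mice.

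Lag3, a checkpoint receptor gene, was at 247, 415 and 230 CPM in p19-/- and 90.2 and 107 CPM in WT Tcf7 Tfh cells (log2 fold change 1.57, SE 0.30, edgeR adjusted p = 0.302). It passed when p19-/- 3 was left out, in cells thinned and gated again, without the filter on low counts and without Ccl5 or Nkg7 cells. In mature Tfh cells it was at 373, 372 and 372 CPM in p19-/- and 223 and 237 CPM in WT mice and rose by 0.70 (adjusted p = 0.00838). The difference between these effects was 0.85 and did not pass (interaction adjusted p = 1.0). The markers Rflnb and Nsg2 were lower in p19-/- mice without passing: Rflnb was at 174, 120 and 133 CPM in p19-/- and 214 and 335 CPM in WT Tcf7 Tfh cells (-0.96, SE 0.27, adjusted p = 0.685). Nsg2 had a log2 fold change of -0.76 (adjusted p = 0.867) in Tcf7 Tfh and -0.96 (adjusted p = 0.0694) in mature Tfh cells. Tcf7, whose detection was demanded, was at 733, 529 and 546 CPM in p19-/- and 477 and 516 CPM in WT mice.

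Spp1, which encodes osteopontin, was the gene with the largest increase by genotype in mature Tfh cells, at 609, 446 and 674 CPM in p19-/- and 3.81 and 2.54 CPM in WT mice (edgeR adjusted p = 2.96e-07). In Tcf7 Tfh cells it gave 19, 0 and 11 UMIs in p19-/- mice, from 4 cells, and 0 UMIs in both WT mice, too few to enter the genotype test. Against mature Tfh cells Spp1 was lower in Tcf7 Tfh cells (log2 fold change -3.54, adjusted p = 1.01e-05), a value carried by the p19-/- mice, and it did not pass without mouse in the model. The interaction for Spp1 did not pass (adjusted p = 1.0).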

How the data were processed

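Filtered UMI count matrices and BCR contig lists were used as deposited, 1 of each per mouse. Counts were made by the authors with Cell Ranger 3.0.2 and STAR on the mm10 build, per the submitters' processing notes. Cells with at least 200 genes and at most 10% mitochondrial UMIs were kept. Members and gene lists were chosen with earlier results of these data known.

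Counts were summed per mouse and class (at least 10 cells) and tested with edgeR 4.0.16 in R 4.3.3 (quasi-likelihood, TMM, filterByExpr, Benjamini-Hochberg threshold 0.05). Class contrasts had the mouse as a block, since classes came from the same animal. Deviations of Tcf7 Tfh and mature Tfh sums of the same mouse correlated by 0.149 to 0.237, and of Tcf7 Tfh and Treg sums by 0.0887 to 0.259. CPM are UMIs per 1e6 UMIs of the class. Shares were compared with exact permutation tests, and intervals are Clopper-Pearson at 95%, covering counting error only. The floor was 3 counts per group.

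Named genes passed the threshold. For class contrasts they had the same direction in every mouse and at least 50 CPM in the higher class, up to 10 per direction by fold change. For genotype they had groups without overlap and at least 10 CPM, up to 15 per direction. Segments of antigen receptors, Xist, Y-linked and unnamed genes were left out, and genes of the definition and the lists could be named too. 1 listed gene is not reported here by name, though counts over the lists include it. Scrublet (scanpy 1.11.5) at its automatic threshold marked 7, 2 and 6 cells in p19-/- and 9 and 4 in WT mice, too few to have worked. The highest scores up to 0.8% per 1000 barcodes were removed as an alternative, 7 of them Tcf7 Tfh cells. The code was tested on simulated counts.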

Additional observations from a re-analysis of the deposited data

How the results depend on the processing

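For the genes that the naming rule chose and a few others followed through every alternative, 398 values against mature Tfh cells kept direction and side of the threshold, 2 newly passed and 3 no longer did; against Treg cells 340 kept both, 1 newly passed, 7 no longer did and 5 reversed; and against naive-like cells 164 kept both, 17 newly passed, 16 no longer did and 1 reversed. By genotype 118 kept both and 25 newly passed in Tcf7 Tfh cells, 334 kept both and 57 no longer passed in mature Tfh cells, and 111 and 73 in Treg cells. Further listed genes, such as Lef1, Hk1, P4ha1 and Lag3 against mature Tfh cells, are not in these counts and lost their calls when single mice were left out, as given beside them. The reversals were Bcl6 against Treg cells (-0.0712 to 0.42 when 1 mouse at a time was left out, the lowest without WT 1; at most 5% mitochondrial UMIs -0.0116; without cells that had a BCR contig -0.0500), Il7r against Treg cells (thinned -0.23, at least 3 of 8 Tfh genes -0.14) and Slamf6 against naive-like cells (thinned -0.0449). None of these genes passed in the reported comparison. The causes were not tested.

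Without cells that had a BCR contig the difference in share was 1.42 percentage points. Leaving out 1 mouse at a time gave 305 to 429 calls against mature Tfh cells and 308 to 438 against Treg cells. By genotype it gave 0 to 5 in Tcf7 Tfh, 12 to 59 in mature Tfh and 1 to 26 in Treg cells, and for the interaction 0 to 2 (mature Tfh) and 0 to 17 (Treg). Thinning to 2000 UMIs and gating again gave 215 calls against mature Tfh, 267 against Treg and 168 against naive-like cells. It gave 7 by genotype in Tcf7 Tfh, 64 in mature Tfh and 30 in Treg cells, and 2 for the mature Tfh interaction. Without the filter on low counts the genotype calls were 58, 270 and 104 in Tcf7 Tfh, mature Tfh and Treg cells, the interaction calls 19 (mature Tfh) and 47 (Treg), and the naive-like calls 141. DESeq2 gave 2 calls by genotype in Tcf7 Tfh cells, 257 against Treg and 71 against naive-like cells. Removing Scrublet doublets gave 2, 61 and 186 for genotype in Tcf7 Tfh, genotype in mature Tfh and naive-like, and 1 for the Treg interaction. With sex as a covariate 1 gene passed by genotype in Tcf7 Tfh cells. Without cells that had a BCR contig the genotype count in Treg cells was 3 and the naive-like count 61. Without Ccl5 or Nkg7 cells, chosen after seeing the data, genotype calls were 3 in Tcf7 Tfh and 25 in Treg cells and 1 for the Treg interaction, and with Cd4-positive cells alone, also chosen afterwards, 1 in Treg cells. Against naive-like cells the count of 16 became 0 with RLE scaling, 219 with at least 3 of 8 Tfh genes, 170 with at most 5% mitochondrial UMIs, 92 with S100a4 and Ccl5 allowed, and 295 with all 5 mice, a setting chosen after seeing the data. The demand for at least 3 Tfh genes also changed the naive-like cells, which could then have up to 2 of the 8.

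Replicate numbers were not shown to pair mice across genotypes: deviations correlated by -0.03 for number 1 and 0.116 for number 2. With the replicate number as a block, 13 genes passed by genotype in Tcf7 Tfh and 372 in mature Tfh cells. Without the mouse block in class contrasts, 104 passed against naive-like cells. Leaving out a mouse was not run for the naive-like comparison, nor its interaction with genotype, since no residual degrees of freedom remained.

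Limits were the 34 to 70 cells per mouse, 2 WT mice, 1 male among the p19-/- mice, and RNA of B cells in some barcodes. Depth limits genes of few UMIs most.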

Other observations

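Cell cycle genes were found in a minority of Tcf7 Tfh cells. Mki67 or Top2a, markers of proliferating cells, was detected in 25 of 275 cells, namely 2, 2 and 10 in p19-/- mice and 4 and 7 in WT mice. Genes of gamma-delta T cells were detected in 3 cells.

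Ccl5 was more abundant in the 288 cells that met every other demand but had no Tcf7 UMI. It was detected in 14 of 275 Tcf7 Tfh cells (503 CPM), against 47 of those 288 cells (4121 CPM). Cxcr5, one of the choosing genes, was detected in 44.0% of Tcf7 Tfh cells and 17.7% of Tcf7-zero cells, whose median depths were 3387 and 2755 UMIs. These are descriptions of cells on both sides of the choosing rule, with no test.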
